A study of Mus musculus with 9 samples.

Results

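The 34 genes described here encode chaperones and enzymes that fold proteins in the endoplasmic reticulum (ER). They were listed by name for their function, and all 34 were found among the 29995 genes of the deposited tables without immunoglobulin (Ig) genes. RNA-seq was done on cells sorted from the spleens of 12-week-old B6.Blimp1GFP/+ mice, in which 1 Blimp1 allele carries a green fluorescent protein (GFP) reporter, 4 days after an intraperitoneal injection of 50 μg of NP-LPS. This antigen is a nitrophenyl (NP) hapten joined to lipopolysaccharide, and it drives B cells that bind NP to become plasma cells without T cell help. Every group came from immunized mice that carried the reporter allele, and no group was unimmunized. The paper states that each group was sorted and then sorted again, with cells bearing T cell, macrophage or erythroid surface markers gated out. The naive B cells were IgD high, B220+ and NP-. Antigen-specific B cells (NP+ B cells) were NP+, B220+, IgD-, GFP- and CD138-. Antigen-specific plasma cells were NP+, IgD-, GFP+ and CD138+, with or without B220. Each group had 3 libraries, numbered 1 to 3, and the series describes them as biological replicates from 3 mice.

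Proteins destined for secretion enter the ER unfolded. There they bind Hsp70- and Hsp90-type chaperones, are held by lectins that read their glycans, and receive disulfide bonds from oxidases by way of disulfide isomerases, while prolyl isomerases turn proline bonds. An antibody needs all of these steps, and BiP, the product of Hspa5, was named for its binding to Ig heavy chains. The unfolded protein response (UPR) raises transcription of many of these genes when unfolded proteins accumulate, and plasma cells are the textbook case of a cell with an enlarged ER.

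Libraries of the table without Ig genes held 28490300 to 31719400 estimated reads in naive B cells, 34918400 to 38602300 in NP+ B cells and 20189900 to 22137400 in plasma cells. Values are TPM, which are corrected for transcript length, so levels of different genes can be set side by side. The sort was checked on marker genes. The 8 B cell markers summed to 9545 to 9966 TPM in naive, 6633 to 7163 in NP+ B and 1507 to 1583 in plasma cell libraries, and the 5 plasma cell markers measured summed to 142 to 167, 175 to 194 and 4811 to 5939 TPM. That sum was mostly Xbp1, at a mean of 118.9, 156 and 4174 TPM, and from naive to NP+ B cells Sdc1 (7.02 to 0.943 TPM) and Irf4 (25.1 to 11.12 TPM) fell while Tnfrsf17 rose (0.256 to 10.4 TPM). Plasma cell replicate 3 stood apart, because 12 liver genes summed to 6075 TPM there against 66.3 and 65.5 in the other plasma cell libraries and 4.04 to 6.48 in the 6 B cell libraries, and none of the 12 was at 0 in it (Alb was at 660.5 TPM). Of 9 macrophage genes, the sum was 10.4 to 11.2 TPM in naive, 53.7 to 71.5 in NP+ B and 35.5, 47.1 and 128.5 in plasma cell libraries, with up to 3 genes at 0. Cd68 was at a mean of 3.98, 57.6 and 32.5 TPM in the 3 groups and made up most of the sum in NP+ B cells and in plasma cell replicates 1 and 2, Lyz2 was the highest at 48.2 TPM in plasma cell replicate 3, and C1qa, C1qb and C1qc were at most 0.0651 TPM in any NP+ B library and at 7.24, 15.9 and 12.6 TPM in plasma cell replicate 3. Sums of 7 neutrophil genes reached 50.2 TPM in NP+ B cell replicate 2 and 32.996 in plasma cell replicate 3 and were at most 5.41 elsewhere. The 8 T cell genes summed to 57.2 to 65.8, 27.4 to 60.5 and 4.97 to 9.35 TPM, with Lck at means of 53.8, 37.1 and 0.564 TPM, the largest part in the B cell libraries, and Cd3e was at most 1.15 TPM in any library. Of 8 erythroid genes the sum was 18.3 to 20.5, 19.5 to 30.9 and 7.28 to 39.3 TPM, and of 6 stromal genes 133.9 to 168.3, 90.4 to 115.0 and 24.9 to 59.3 TPM, of which Pecam1 alone had means of 151.7, 103.1 and 35.01 TPM. Results for plasma cells are given with and without replicate 3 where it mattered, and the part of such cells in the other results was not tested.

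The first question was how much of the mRNA these genes make up in each cell type. Summed TPM of the 34 genes came to 0.407% ± 0.0212 of the naive total (SD, n = 3), 0.556% ± 0.0346 of the NP+ B cell total and 5.75% ± 0.130 of the plasma cell total. Library by library the share was 0.391, 0.399 and 0.431% in naive cells, 0.530, 0.542 and 0.595% in NP+ B cells and 5.78, 5.85 and 5.60% in plasma cells, so no group overlapped another. Without plasma cell replicate 3 the plasma cell mean was 5.82%. With Ig genes kept in the table, where Ig genes took 59.6% ± 2.51 of plasma cell TPM, the shares were 0.384% ± 0.0201, 0.520% ± 0.0359 and 2.33% ± 0.102. In bulk RNA, fewer cells of a type and less RNA per cell cannot be told apart, and a share says nothing about the amount of RNA in a cell.

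**Figure D1:**
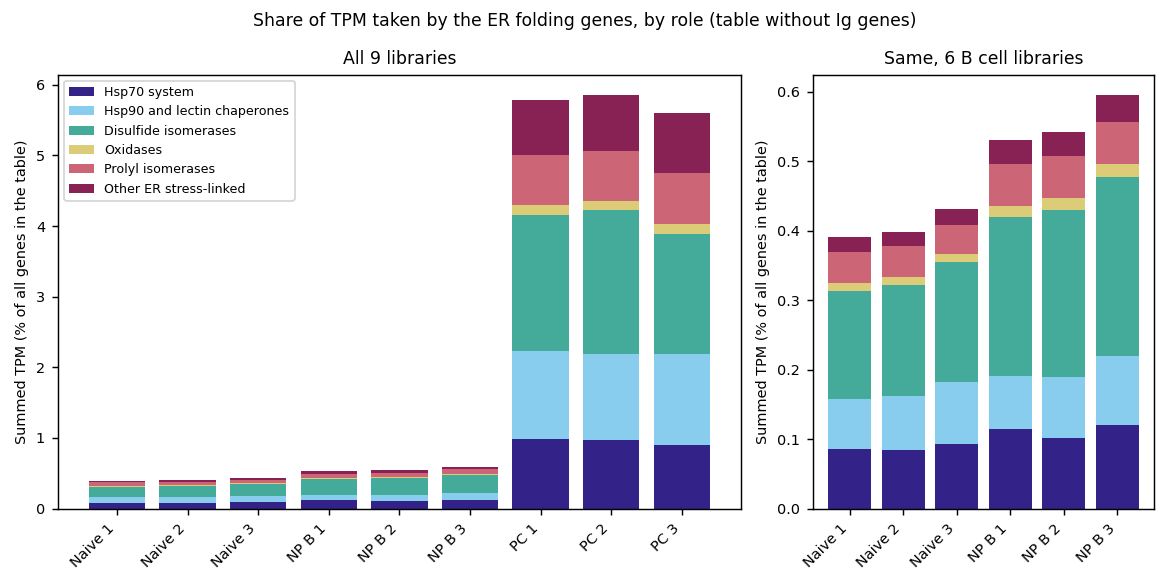
Summed TPM of the ER folding genes as a percentage of all TPM in the table without Ig genes (y axis), one stacked bar per library, coloured by role (NP B, NP+ B cells; PC, plasma cells); the right panel repeats the 6 B cell libraries on a smaller scale. The members took 0.391 to 0.431% in naive, 0.530 to 0.595% in NP+ B and 5.60 to 5.85% in plasma cell libraries.

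The order of abundance among the members differed between the groups as well. In naive B cells Hspa5, Calr, Pdia3, Ppib and Pdia4 led and made up 46.1% of the members' TPM, and in NP+ B cells Hspa5, Pdia3, Pdia4, Hsp90b1 and Ppib made up 44.5%. In plasma cells Hsp90b1, Pdia4, Hspa5, Txndc5 and Manf made up 50.1%, and Hsp90b1 alone made up 16.6%. No member was among the 100 most abundant genes of naive or NP+ B cells, whereas 13 were in plasma cells, where Hsp90b1 ranked 4 among all genes, Pdia4 18, Hspa5 20, Txndc5 22 and Manf 25. Leaving Hsp90b1 out, the members still took 0.383%, 0.513% and 4.796% of TPM in the 3 groups.

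Each member was then tested with limma in 3 comparisons, among 12892 genes with at least 1 TPM in at least 3 libraries. A gene was called with an adjusted p under 0.05 and a fold change over 2, and a lower threshold, an adjusted p under 0.05 and a log2 change of at least 0.5, was counted beside it. The filter passed 33 members and left out Pdia5. The comparisons share libraries in pairs, so they are not independent of each other.

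In plasma cells against naive B cells, 28 of the 33 members tested were higher and 0 lower, where 11.4% of all genes tested were higher and 26.3% lower. By the lower threshold 29 were higher and 0 lower, against 16.5% and 39.7% of all genes. The median log2 change of the members was 3.18 (range -0.41 to 6.53), and that of all genes was -0.47. Every one of the 28 had an adjusted p of 2.93e-05 (that of Ero1l) or less by limma. The count of 0 lower compares with 1 member below 0 at an unadjusted p under 0.05, Tmx3.

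In plasma cells against NP+ B cells, 27 members were higher and 0 lower, where 9.93% of all genes were higher and 22.3% lower. The lower threshold gave 29 higher and 0 lower, against 14.2% and 35.9% of all genes. No member was below 0 at an unadjusted p under 0.05. The median of the members was 3.23 (range -0.03 to 5.07) on the log2 scale, and that of all genes -0.30. Without plasma cell replicate 3 the members higher numbered 29 against naive cells and 27 against NP+ B cells.

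In NP+ B cells against naive B cells the members lay on both sides of 0, with more above than below. At an unadjusted p under 0.05 by limma, 17 were above 0 and 5 below. There were 5 members higher and 3 lower, 15.2% and 9.09% of those tested, where 8.13% of all genes were higher and 10.4% lower. The share lower was close to that of all genes, and Fkbp14, among the 3, rests on 3 estimated reads. By the lower threshold 11 members were higher and 5 lower, against 15.7% and 20.9% of all genes. The 5 lower became 3 with median-of-ratios scaling, with quantile normalization and without some single libraries. Fewer than 11 were higher with quantile normalization. The median was 0.33 (range -1.46 to 1.56), with 23 of 33 above 0, and that of all genes was -0.16. By mean TPM, 23 of the 34 members stood in the order naive, NP+ B, plasma cell, and 8 were lowest in NP+ B cells and highest in plasma cells (Hyou1, Sil1, Dnajb9, Calr, Pdia5, Tmx1, Ero1lb and Wfs1).

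**Figure D2:**
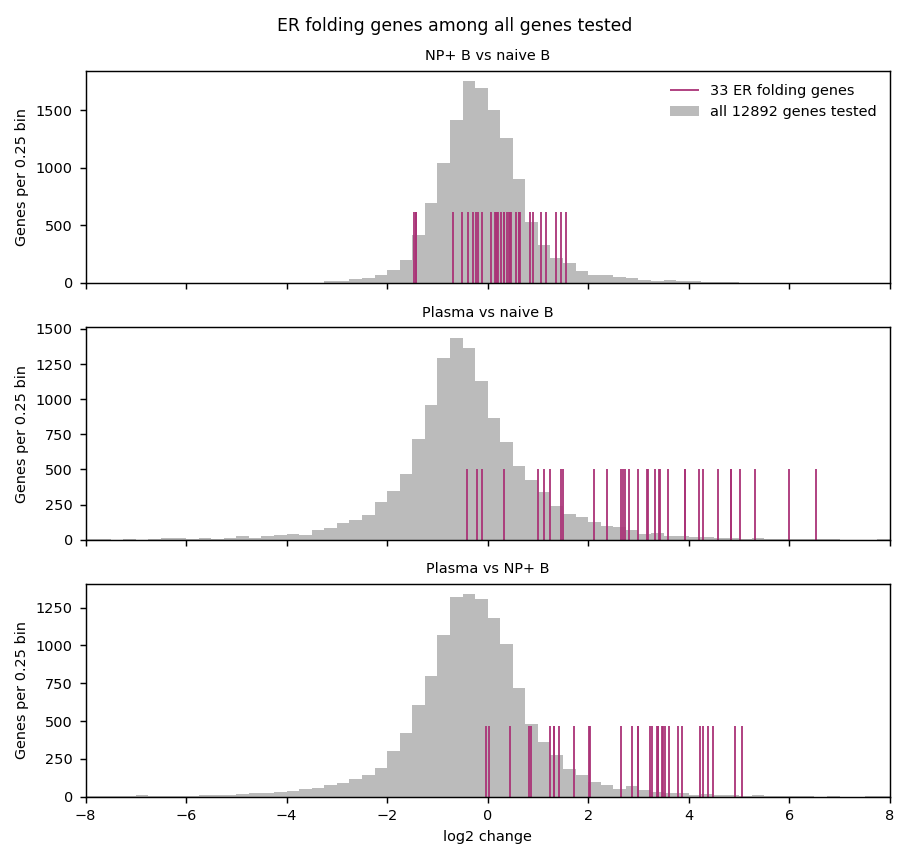
Histogram of log2 changes of all 12892 genes tested (grey, 0.25-wide bins, genes per bin on the y axis, changes past 8 in the outermost bins) with the 33 ER folding genes as purple lines, 1 panel per comparison. The members lie on both sides of 0 in NP+ B against naive B cells (median 0.33) and mostly to the right of the bulk of genes in both plasma cell comparisons (medians 3.18 and 3.23).

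Scaling moved the members along with the other genes. With median-of-ratios scaling the median of all genes moved up by 0.11 in NP+ B against naive cells, by 0.49 in plasma against naive cells and by 0.38 in plasma against NP+ B cells. The genes called higher and lower then made up 9.76% and 7.93%, 18.2% and 14.1%, and 15.7% and 13.9% of all genes in the 3 comparisons. The members' medians were then 0.44, 3.67 and 3.61, those called higher numbered 6, 29 and 30, and those lower 2, 0 and 0. With Ig genes kept, the medians of all genes in the plasma cell comparisons moved by -0.93 and -0.97. Of all genes, 4.47% and 3.41% were then higher and 64.5% and 59.7% lower. Of 32 members tested 23 were higher and 2 lower against naive cells (median 1.96). Against NP+ B cells 21 members were higher and 1 lower (median 2.04).

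The members' promoters were searched for 3 elements of the UPR, because so many members rose together in plasma cells. The ER stress response element holds a CCAAT box, bound by NF-Y, and a CCACG box, read by ATF6 and XBP1, with 9 bases between them. Its second form has ATTGG and CCACG with 1 base between them, and the UPR element has the core TGACGTGG, which shares 5 bases with the reverse complement of CCACG. Windows ran from 250 bases before to 50 after each RefSeq start (mouse build GRCm38.p6), both strands were searched for exact matches, and 29 of the 34 members had a window. The ER stress response element was found in 8 of the 29 members (27.6%), against 39 of 32851 windows (0.119%) and 37 of 27025 genes (0.137%). The 37 genes include these 8. The members were listed as ER folding genes, many of which the UPR is known to raise. A share above that of all genes was therefore likely beforehand, so the shares describe the members and test nothing. Its second form was found in 1 member, Dnajb11, from base 7 to base 17 after the start, against 0.0365% of windows. The UPR core was found in 2 members, Txndc5 and Txndc11, against 0.676% of windows.

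The stretches with the element are shown for those 8 genes because they carry the same 2 boxes, 9 bases apart, in front of genes of 5 different roles. Each is on the strand of the gene, with the boxes in capitals and positions counted from the start (negative before it). A gene whose element lies on the other strand shows CGTGG and then ATTGG.
Hspa5 (chr2:34772010-34772058, + strand, bases -80 to -32): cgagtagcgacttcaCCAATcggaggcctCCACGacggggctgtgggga
Dnajc3 (chr14:118937812-118937860, + strand, bases -120 to -72): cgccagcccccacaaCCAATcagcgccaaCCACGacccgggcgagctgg
Hsp90b1, with 2 elements (chr10:86705518-86705671, - strand, bases -227 to -74): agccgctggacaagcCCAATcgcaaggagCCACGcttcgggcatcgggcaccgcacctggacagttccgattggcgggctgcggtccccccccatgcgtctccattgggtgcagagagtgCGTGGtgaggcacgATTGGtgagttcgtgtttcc
Calr (chr8:84847060-84847108, - strand, bases -177 to -129): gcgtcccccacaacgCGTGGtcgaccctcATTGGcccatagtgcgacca
Canx (chr11:50325785-50325833, - strand, bases -160 to -112): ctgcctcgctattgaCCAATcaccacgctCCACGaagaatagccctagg
Pdia6 (chr12:17266476-17266524, + strand, bases -113 to -65): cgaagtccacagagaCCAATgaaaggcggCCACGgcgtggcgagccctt
Ero1lb (chr13:12565667-12565715, + strand, bases -216 to -168): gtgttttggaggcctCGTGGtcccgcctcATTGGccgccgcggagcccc
Creld2 (chr15:88819505-88819553, + strand, bases -141 to -93): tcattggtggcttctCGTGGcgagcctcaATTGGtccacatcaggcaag
The UPR core of Txndc5 and Txndc11 is shown in the same way, with 10 bases on each side. The RefSeq spans of both genes begin further upstream, at 38528824 and 11134645. These bases thus lie before the start used for the window but within the RefSeq span of the gene.
Txndc5 (chr13:38528035-38528062, - strand): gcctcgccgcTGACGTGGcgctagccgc
Txndc11 (chr16:11134617-11134644, - strand): gaagtgtggcTGACGTGGagagtccggg

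In plasma cells against naive B cells all 8 members with the ER stress response element were higher, with a median log2 change of 3.31. Of 20 tested members with a window but without this element 16 were higher, with a median of 3.26. These 20 include Dnajb11, which has the second form (log2 change 3.33). They also include Txndc5 and Txndc11, which have the UPR core (4.57 and 3.92). The 20 are thus not a group free of UPR elements, and whether the element goes with the size of the change was not tested. Outside the members, 29 genes had the element in a window and 9 of them were tested. In that comparison 2 of the 9 rose, Derl3 by 6.85 ± 0.14 and Syvn1 by 1.43 ± 0.11 on the log2 scale, both of which act in ER-associated degradation, and 1 fell, Adcy3 (-2.28 ± 0.40). The median of the 9 was 0.39. A match of letters is not evidence of binding in these cells.

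**Figure D3:**
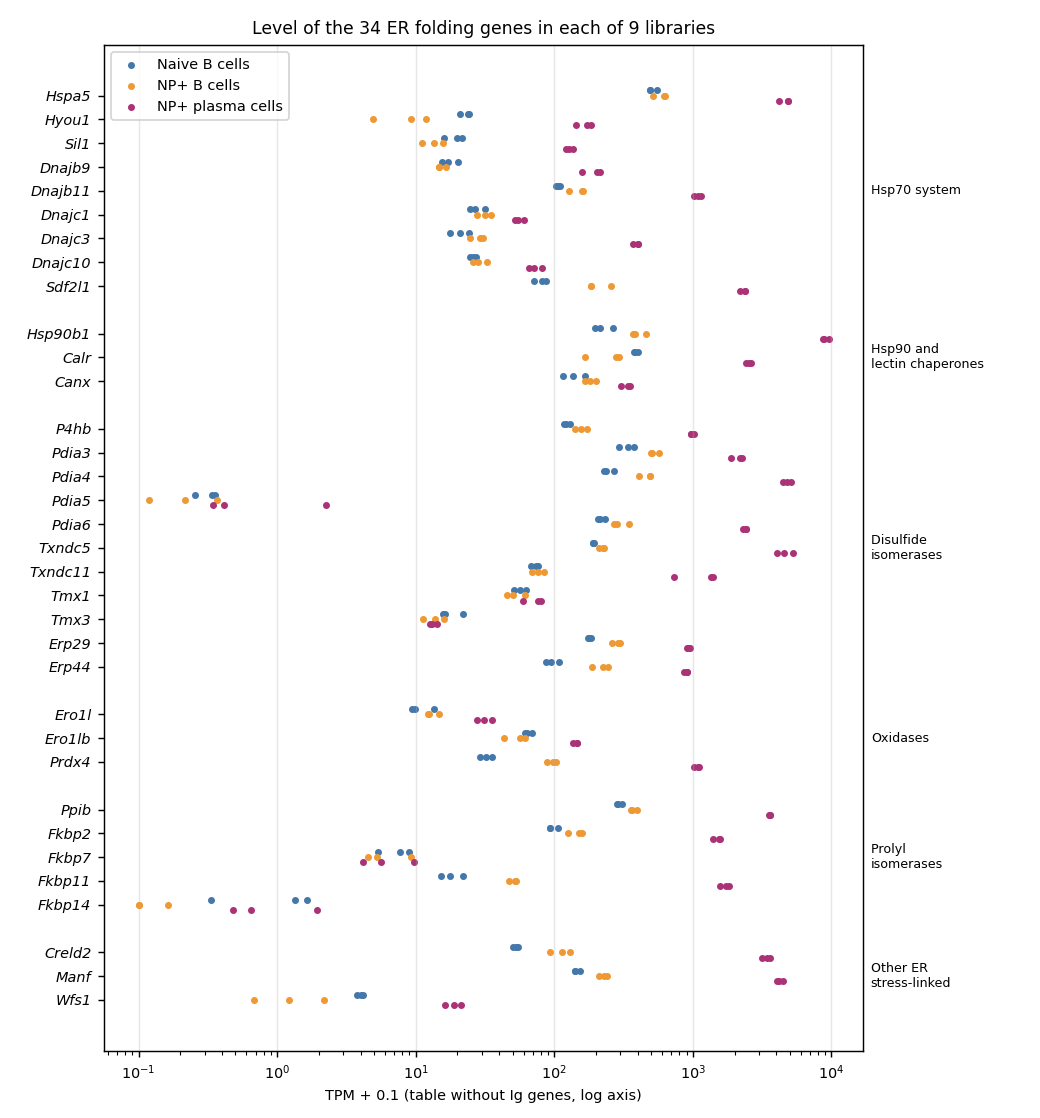
TPM plus 0.1 of each of the 34 ER folding genes (rows, grouped by role) on a log axis, 1 dot per library (blue naive B cells, orange NP+ B cells, purple NP+ plasma cells). For most genes the plasma cell dots lie to the right of all 6 B cell dots, whereas Pdia5, Tmx1, Tmx3, Fkbp7 and Fkbp14 show overlap of plasma cells with B cells.

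Among the 9 genes of the BiP system, 8 rose in plasma cells against both B cell groups, and only Sdf2l1 rose and only Hyou1 fell in NP+ B cells by a fold change over 2. With Ig genes kept, 7 rose in plasma cells against each B cell group. Hspa5, the ER Hsp70, was at 492, 488 and 554 TPM in the naive libraries, 627, 516 and 614 in the NP+ B cell libraries and 4891, 4894 and 4209.7 in the plasma cell libraries. It was the most abundant member in both B cell groups, where the libraries of NP+ B and naive cells overlapped (log2 change 0.18 ± 0.11, SE, adjusted p = 0.198). In plasma cells it rose 9.06-fold over naive cells (adjusted p = 1.17e-09).

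Hyou1, an Hsp70 relative that exchanges nucleotide on BiP, was at 20.9, 23.6 and 24.3 TPM in the naive libraries, 4.85, 11.7 and 9.15 in the NP+ B cell libraries and 172, 184 and 144 in the plasma cell libraries. All 3 NP+ B cell libraries were below all naive libraries, a fall of 2.74-fold (adjusted p = 0.00167). Against NP+ B cells it rose 19.4-fold in plasma cells, more than the 7.06-fold against naive cells. Sil1, the other nucleotide exchange factor of BiP, was at 19.8, 21.5 and 15.9 TPM in the naive libraries, 15.7, 13.4 and 11.02 in the NP+ B cell libraries and 122, 136 and 128 in the plasma cell libraries. In NP+ B cells it was lower, without overlap, past the lower threshold (log2 change -0.51 ± 0.18, adjusted p = 0.0417), which it missed with median-of-ratios scaling (-0.39, adjusted p = 0.124), with quantile normalization (-0.42, adjusted p = 0.0903) and in 5 of the 9 fits that left out 1 library. It rose 6.61-fold in plasma cells against naive cells. The ratio of Hspa5 to Hyou1 TPM was 22.3 ± 1.47 in naive, 80.1 ± 44.1 in NP+ B and 28.2 ± 1.36 in plasma cells.

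J-domain proteins hand unfolded clients to BiP and start its ATP hydrolysis. Dnajb9 was at 17.1, 15.4 and 20.2 TPM in the naive libraries, 14.6, 14.6 and 16.5 in the NP+ B cell libraries and 205, 158 and 213 in the plasma cell libraries and rose 10.6-fold in plasma against naive cells. Dnajb11, which binds Ig heavy chains together with BiP, was at 107, 103 and 111 TPM in the naive libraries, 161, 128 and 157 in the NP+ B cell libraries and 1091, 1136 and 1015 in the plasma cell libraries. In NP+ B cells it lay above naive cells without overlap but under both thresholds of size (log2 change 0.46 ± 0.11, adjusted p = 0.00771), and in plasma cells it rose 10.03-fold. Its level stayed in a narrow proportion to that of Hspa5, with a TPM ratio of Hspa5 to Dnajb11 of 4.79 ± 0.198, 3.94 ± 0.0846 and 4.31 ± 0.168 in the 3 groups.

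Dnajc3, a J protein that also restrains the kinase PERK, was at 20.9, 17.5 and 24.1 TPM in the naive libraries, 24.7, 30.7 and 28.8 in the NP+ B cell libraries and 398, 404 and 370.3 in the plasma cell libraries. The rise in plasma cells was 18.4-fold against naive cells and 13.8-fold against NP+ B cells. Dnajc10, a J protein with thioredoxin domains that reduces disulfides, was at 25.9, 27.1 and 24.4 TPM in the naive libraries, 32.8, 27.97 and 25.6 in the NP+ B cell libraries and 71.3, 81.3 and 65.3 in the plasma cell libraries and rose 2.76-fold against naive cells. Its plasma cell calls against both B cell groups were lost with Ig genes kept. Dnajc1, a membrane J protein, ranged from 24.6 to 31.8 TPM in naive, 27.4 to 34.8 in NP+ B and 51.7 to 60.2 in plasma cells. Its log2 change of 0.99 ± 0.14 against naive cells passed only the lower threshold (adjusted p = 0.000107), but it was 1.49 with median-of-ratios scaling and turned to -0.20 with Ig genes kept (-0.36 against NP+ B cells). Without plasma cell replicate 3, and with quantile normalization, it was called higher than in naive cells. The exons of Dnajc1 overlap 749 bases of Mllt10, which lies on the other strand. Mllt10 was at a mean of 67.8 TPM over all libraries. Dnajc1 was at means of 27.7, 31.3 and 55.6 TPM in naive, NP+ B and plasma cells. The libraries do not mark strand, so reads of that stretch cannot be told apart. The 5 J proteins thus differed widely in plasma cells, from a log2 change of 0.99 for Dnajc1 to 4.20 for Dnajc3.

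Sdf2l1, which forms a complex with Dnajb11, was at 71.7, 80.9 and 86.7 TPM in the naive libraries, 185, 185 and 255 in the NP+ B cell libraries and 2359, 2189 and 2365 in the plasma cell libraries. The 3 groups did not overlap, and the gene rose at both steps, 2.57-fold from naive to NP+ B cells (adjusted p = 3.94e-05) and 11.2-fold from there to plasma cells (adjusted p = 2.61e-09).

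The ER Hsp90 and both lectin chaperones rose from naive to plasma cells, by very different amounts. Hsp90b1, which folds late intermediates such as Ig chains and Toll-like receptors, was at 196, 214 and 264 TPM in the naive libraries, 371, 383 and 458 in the NP+ B cell libraries and 8872, 8630.0 and 9544 in the plasma cell libraries. It gained 40.2-fold in plasma cells over naive cells (log2 change 5.33 ± 0.11, adjusted p = 1.02e-10) and became the most abundant member. In NP+ B cells it was already above all naive libraries, by 0.84 ± 0.12 on the log2 scale, which passed the lower threshold (adjusted p = 0.000402). The TPM ratio of Hspa5 to Hsp90b1 was 2.51, 2.29 and 2.10 in naive libraries, 1.69, 1.34 and 1.34 in NP+ B libraries and 0.551, 0.567 and 0.441 in plasma cell libraries. The balance of the 2 chaperone mRNAs was thus inverted in all 3 plasma cell libraries.

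Calr, the soluble lectin chaperone of the ER lumen, was at 374, 382 and 401 TPM in the naive libraries, 166, 294 and 280.1 in the NP+ B cell libraries and 2530.4, 2631 and 2405 in the plasma cell libraries. All NP+ B libraries lay below all naive libraries, with the lowest value in replicate 1 (log2 change -0.70 ± 0.18, adjusted p = 0.00944, past the lower threshold), and in plasma cells the gene rose 6.50-fold over naive cells. With quantile normalization Calr was called lower in NP+ B than in naive cells. Canx, its membrane-bound relative, was at 116, 137 and 167 TPM in the naive libraries, 180.3, 167 and 199 in the NP+ B cell libraries and 349, 343 and 302 in the plasma cell libraries. It rose 2.37-fold in plasma against naive cells and passed only the lower threshold against NP+ B cells (log2 change 0.86 ± 0.13), but with Ig genes kept these changes were 0.03 and -0.34. The ratio of Calr to Canx TPM was 2.80 ± 0.408 in naive, 1.36 ± 0.424 in NP+ B and 7.63 ± 0.360 in plasma cells.

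**Figure D4:**
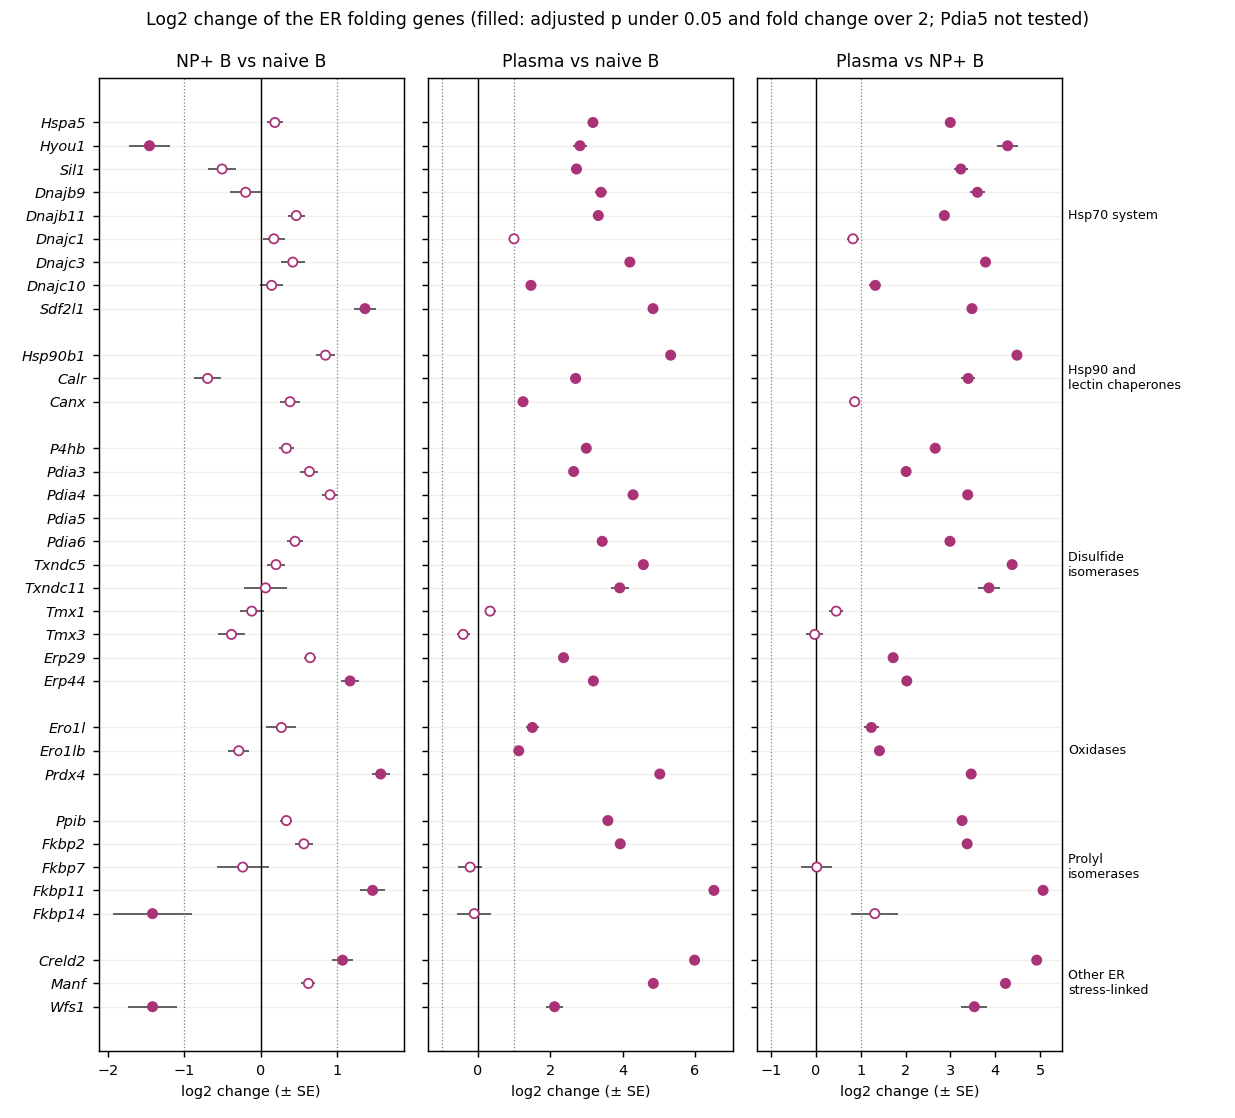
Log2 change ± SE of the 33 ER folding genes tested in 3 comparisons (x axis), grouped by role; filled symbols mark an adjusted p under 0.05 with a fold change over 2, and dotted lines mark log2 changes of -1 and 1. In NP+ B against naive B cells 5 symbols are filled to the right and 3 to the left, and in the plasma cell comparisons 28 and 27 are filled, all to the right.

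Of the 11 disulfide isomerases and relatives 10 were tested, and 8 of the 10 rose in plasma cells against each B cell group (with Ig genes kept, 8 higher and 1 lower against naive cells and 5 higher and 1 lower against NP+ B cells). P4hb, the classical protein disulfide isomerase, was at 130.4, 121 and 118 TPM in the naive libraries, 141, 173 and 155 in the NP+ B cell libraries and 1022, 975 and 962 in the plasma cell libraries and rose 7.97-fold in plasma against naive cells. Pdia3, which works with the lectins on glycoproteins, was at 295, 339 and 375 TPM in the naive libraries, 505, 495 and 569.6 in the NP+ B cell libraries and 2189.7, 2276 and 1871 in the plasma cell libraries. It was higher in NP+ B than in naive cells without overlap (log2 change 0.63 ± 0.12, adjusted p = 0.00177, past the lower threshold), and rose 6.26-fold in plasma against naive cells.

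Pdia4 was at 228, 237 and 269 TPM in the naive libraries, 406, 489 and 488 in the NP+ B cell libraries and 4814, 5116 and 4484 in the plasma cell libraries. It passed the lower threshold in NP+ B cells (log2 change 0.90 ± 0.11, adjusted p = 0.000114) and rose 19.5-fold in plasma against naive cells. Pdia6, which also attenuates the UPR sensor IRE1, was at 207, 213 and 234 TPM in the naive libraries, 271, 281 and 348 in the NP+ B cell libraries and 2429.8, 2399.8 and 2280.5 in the plasma cell libraries and rose 10.8-fold. Both encode isomerases that associate with BiP, and the ratio of Pdia4 to P4hb TPM went from 2.00 ± 0.274 in naive to 2.95 ± 0.165 in NP+ B and 4.87 ± 0.325 in plasma cells.

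Txndc5, an isomerase with 3 thioredoxin domains, was at 190.2, 192 and 192 TPM in the naive libraries, 209.6, 226 and 227 in the NP+ B cell libraries and 4537, 5290.2 and 4019 in the plasma cell libraries. NP+ B cells lay just above naive cells and did not pass the test (log2 change 0.20 ± 0.12, adjusted p = 0.217), and plasma cells rose 23.8-fold over naive cells. Txndc11, a membrane-bound thioredoxin protein, was at 76.5, 67.6 and 73.8 TPM in the naive libraries, 84.6, 75.8 and 68.8 in the NP+ B cell libraries and 1340.3, 1398 and 730.3 in the plasma cell libraries. Plasma cell replicate 3, the library with liver transcripts, was well below the other 2, and the log2 change against naive cells was 3.92 ± 0.25 with it and 4.23 without it. Both genes passed the thresholds in the plasma cell comparisons and not in NP+ B against naive cells.

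Erp29, a relative without the redox-active cysteines, was at 174, 183 and 179 TPM in the naive libraries, 262, 296 and 286 in the NP+ B cell libraries and 908, 949.6 and 926 in the plasma cell libraries. It was higher in NP+ B than in naive cells past the lower threshold (log2 change 0.64 ± 0.08, adjusted p = 0.000162) and rose 5.15-fold in plasma against naive cells. Its exons overlap 2210 bases of Naa25 on the other strand, and the cDNA kit does not mark strand, so reads of that stretch cannot be told apart, but Naa25 was at a mean of 22.96 TPM over all libraries and Erp29 at 462.8. Erp44, which holds Ero1 oxidases in the ER and retrieves unassembled IgM subunits from the early Golgi, was at 87.5, 94.4 and 108 TPM in the naive libraries, 226, 188 and 243 in the NP+ B cell libraries and 903, 859 and 901 in the plasma cell libraries. It rose at both steps without overlap, 2.24-fold into NP+ B cells (adjusted p = 3.76e-05) and 4.08-fold from there to plasma cells (adjusted p = 6.08e-08). The call at the later step was lost with Ig genes kept.

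The membrane isomerases Tmx1 and Tmx3 were not called in the 3 comparisons. Tmx1 ranged from 51.2 to 62.1 TPM in naive, 45.5 to 61.7 in NP+ B and 59.7 to 79.5 in plasma cells. Its log2 change in plasma cells was 0.33 ± 0.15 against naive cells (adjusted p = 0.0791) and 0.45 ± 0.15 against NP+ B cells (adjusted p = 0.0272), the latter under both thresholds of size. Tmx3 ranged from 15.7 to 21.7, 11.2 to 15.97 and 12.5 to 14.03 TPM, with the same change at -0.41 ± 0.18 (adjusted p = 0.0726), a sign that turned with median-of-ratios scaling (0.08) and with quantile normalization (0.13). Tmx3 was, with Ig genes kept, called lower in plasma cells against naive (-1.52) and NP+ B cells (-1.12), and Tmx1 was at -0.87 and -0.73. Pdia5 was near 0 throughout. It was at 0.259, 0.158 and 0.239 TPM in the naive libraries, 0.270, 0.118 and 0.0199 in the NP+ B cell libraries and 0.317, 0.247 and 2.16 in the plasma cell libraries, so only plasma cell replicate 3 exceeded 1 TPM, the library in which the 12 liver genes summed to 6075 TPM, and it was not tested.

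All 3 genes of the oxidative pathway rose in plasma cells, the peroxidase far more than the oxidases. Ero1l, a flavoprotein that reoxidizes disulfide isomerases and gives off hydrogen peroxide, was at 9.78, 9.24 and 13.4 TPM in the naive libraries, 12.5, 14.5 and 12.2 in the NP+ B cell libraries and 31.2, 35.7 and 27.5 in the plasma cell libraries. It rose 2.83-fold in plasma against naive cells and 2.36-fold against NP+ B cells (adjusted p = 2.93e-05 and 0.000116). Ero1lb, its relative, was at 61.02, 63.9 and 69.2 TPM in the naive libraries, 43.1, 56.6 and 61.4 in the NP+ B cell libraries and 137, 145 and 145 in the plasma cell libraries, more abundant than Ero1l in every library, and rose 2.18-fold over naive cells. An unprocessed pseudogene, Gm18562, matches 921 bases of its transcript at 98.05% identity, so the reads of that stretch are uncertain. In plasma cells neither oxidase was called with Ig genes kept, at log2 changes of 0.33 for Ero1l and -0.08 for Ero1lb against naive cells and 0.07 and 0.22 against NP+ B cells.

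Prdx4, the ER peroxiredoxin, which uses hydrogen peroxide to make further disulfides, was at 35.1, 32.3 and 29.2 TPM in the naive libraries, 98.5, 88.5 and 103 in the NP+ B cell libraries and 1108, 1016 and 1084 in the plasma cell libraries. The groups were clear of each other, with a rise of 2.96-fold from naive to NP+ B cells (adjusted p = 5.97e-06) and 32.6-fold from naive to plasma cells (adjusted p = 1.04e-10). Its log2 change of 1.56 ± 0.12 in NP+ B cells was the largest of the 33 members in that comparison. The TPM ratio of Prdx4 to Ero1l was 3.09 ± 0.790, 7.49 ± 1.24 and 34.5 ± 5.58 in naive, NP+ B and plasma cells, and that of Erp44 to Ero1l was 9.08 ± 1.07, 17.0 ± 3.66 and 28.6 ± 4.39.

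The prolyl isomerases split into 3 genes that rose in plasma cells and 2 at low levels that did not pass the test there. Ppib, the ER cyclophilin, was at 309.5, 289.8 and 284 TPM in the naive libraries, 358, 398 and 363 in the NP+ B cell libraries and 3586, 3573 and 3545 in the plasma cell libraries. The spread among plasma cell libraries was small, at 21.4 TPM (SD), and the gene rose 12.1-fold over naive cells. Its exons overlap 825 bases of Snx22 on the other strand, a gene at no more than 83.7 TPM in any library. Fkbp2 was at 92.6, 106 and 93.4 TPM in the naive libraries, 150.4, 126 and 159 in the NP+ B cell libraries and 1388, 1534 and 1573 in the plasma cell libraries, and was higher past the lower threshold in NP+ B cells (log2 change 0.56 ± 0.12, adjusted p = 0.00338) and 15.3-fold higher in plasma than in naive cells.

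Fkbp11 had the largest rise of all members in both plasma cell comparisons. It was at 21.96, 15.1 and 17.5 TPM in the naive libraries, 53.2, 46.8 and 52.004 in the NP+ B cell libraries and 1724, 1581 and 1832 in the plasma cell libraries. From naive to NP+ B cells it rose 2.75-fold (adjusted p = 5.94e-05), and from there 33.5-fold in plasma cells (adjusted p = 2.19e-10). The log2 change of 6.53 ± 0.14 from naive to plasma cells ranked 16 among the 12892 genes, followed among the members by Creld2 at 24, Hsp90b1 at 39 and Prdx4 at 50.

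Fkbp14, which acts on collagens, was at 0.236, 1.25 and 1.55 TPM in the naive libraries, 0, 0.0626 and 0 in the NP+ B cell libraries and 0.546, 0.382 and 1.83 in the plasma cell libraries. It reached 1 TPM only in naive replicates 2 and 3 and in plasma cell replicate 3, the library with liver transcripts. It was called lower in NP+ B cells at an adjusted p of 0.0489 by limma. Because it passed the filter only through libraries where it was higher, the call supports no conclusion. That call rested on 3 estimated reads over the 3 NP+ B cell libraries against 112 over the naive libraries, a ratio of 0.0223 (95% counting interval 0.00452 to 0.0667), and the call was lost in 7 of the 9 fits that left out 1 library. Fkbp7 ranged from 5.26 to 8.85 TPM in naive, 4.44 to 9.22 in NP+ B and 4.07 to 9.63 in plasma cells, with its highest plasma cell value in replicate 3, and its log2 change in plasma against naive cells was -0.22 ± 0.34 (adjusted p = 0.596).

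The last 3 members are tied to ER stress and calcium rather than to a folding reaction. Creld2, an ER protein induced by stress, was at 52.6, 50.1 and 54.8 TPM in the naive libraries, 113, 93.6 and 129.7 in the NP+ B cell libraries and 3136, 3448 and 3585 in the plasma cell libraries. It rose 2.10-fold into NP+ B cells (adjusted p = 0.000174), a call lost without NP+ B cell replicate 3 (log2 change 0.96) and with quantile normalization (0.97), and 63.6-fold from naive to plasma cells (adjusted p = 9.44e-11). Manf, a small secreted protein that binds BiP, was at 141, 142 and 152 TPM in the naive libraries, 209, 227 and 239 in the NP+ B cell libraries and 4188, 4032 and 4433 in the plasma cell libraries. It was higher past the lower threshold in NP+ B cells (log2 change 0.62 ± 0.09, adjusted p = 0.000407) and rose 28.8-fold from naive to plasma cells.

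Wfs1, an ER membrane protein that is mutated in Wolfram syndrome, was at 3.64, 4.05 and 3.94 TPM in the naive libraries, 0.581, 2.07 and 1.11 in the NP+ B cell libraries and 18.9, 21.04 and 16.1 in the plasma cell libraries. It fell 2.67-fold in NP+ B cells (adjusted p = 0.00578) and rose 4.34-fold in plasma against naive cells (adjusted p = 1.5e-05), with no overlap among the 3 groups. Wfs1 and Hyou1 were the 2 members that fell from naive to NP+ B cells and rose in plasma cells over both, by fold changes over 2, although Wfs1 was not called in plasma against naive cells with Ig genes kept (log2 change 0.97).

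Other genes of ER folding were read from a list of 48, of which 41 were tested. In plasma against naive cells 14 were higher and 5 lower (median log2 change 0.47), in plasma against NP+ B cells 16 and 4 (median 0.53), and in NP+ B against naive cells 5 and 4 (median 0.10). These were 34.1% and 12.2%, 39.0% and 9.76%, and 12.2% and 9.76% of those tested. The shares of all genes higher and lower were 11.4% and 26.3%, 9.93% and 22.3%, and 8.13% and 10.4%. In the plasma cell comparisons the counts were 20 and 1, and 19 and 3, with median-of-ratios scaling. With Ig genes kept they turned to 7 and 15, and 4 and 12, of 40 tested, with medians of -0.63 and -0.56. The largest rises from naive to plasma cells were those of Selm, an ER selenoprotein, with a log2 change of 6.69 ± 0.31, Mzb1, a plasma cell cochaperone for IgM assembly, with 5.46 ± 0.12, and Hspa13, an Hsp70 relative, with 4.39 ± 0.22. Mzb1 reached 16218 ± 1372 TPM in plasma cells, above every member. Selm was at 0.848, 0.351 and 0.839 TPM in naive and 1.84, 1.57 and 0.949 TPM in NP+ B libraries. It passed the filter only with the plasma cell libraries, so its place in both plasma cell rankings is not independent of the filter. The largest falls were those of Cnpy3, which assists Hsp90b1 with Toll-like receptors, with -2.75 ± 0.14, Txndc16 with -1.49 ± 0.14 and Tmx2 with -1.19 ± 0.18. The fall of Cnpy3 was called in all 3 scalings tried, and those of Txndc16 and Tmx2 were not called with median-of-ratios scaling.

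Against NP+ B cells the leading rises in plasma cells were again those of Selm (5.97 ± 0.27), Hspa13 (4.79 ± 0.23) and Mzb1 (4.18 ± 0.11), and the leading falls those of Cnpy3 (-2.66 ± 0.14), Cnpy4 (-1.71 ± 0.27) and Tmx2 (-1.46 ± 0.18). From naive to NP+ B cells the leading rises were those of Gpx7, a peroxidase of the ER (2.45 ± 0.37), Dnajc25 (1.94 ± 0.34) and Vkorc1l1 (1.42 ± 0.39). The leading falls were those of Uggt2 (-1.49 ± 0.34), Pdia2 (-1.41 ± 0.41) and Vkorc1 (-1.11 ± 0.21), all at low to moderate levels. Pdia2 reached 1 TPM in no NP+ B library, so its place is not independent of the filter.

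Chaperones of other compartments were compared because folding in the cytosol and mitochondria uses the same protein families. Of 53 cytosolic chaperones tested, 8 were higher and 0 lower in NP+ B against naive cells by limma (median log2 change 0.52, with 2 below 0 at an unadjusted p under 0.05), 4 and 3 in plasma against naive cells (median -0.21), and 3 and 17 in plasma against NP+ B cells (median -0.64). These were 15.1% and 0%, 7.55% and 5.66%, and 5.66% and 32.1% of those tested. The shares of all genes higher and lower were 8.13% and 10.4%, 11.4% and 26.3%, and 9.93% and 22.3%. In the 2 plasma cell comparisons the counts were 8 and 0, and 5 and 9, with median-of-ratios scaling. With Ig genes kept they were 1 and 40, and 1 and 47, of 51 tested. In that last setting most of all genes tested were lower too. The median in plasma against naive cells was 0.28 with median-of-ratios scaling and -1.39 with Ig genes kept, while that against NP+ B cells stayed below 0 under the 3 scalings tried (-0.26, -0.43 and -1.92). Their share of TPM was 1.25% ± 0.0194, 1.87% ± 0.123 and 1.14% ± 0.0161 in naive, NP+ B and plasma cells. The cytosolic share was thus highest in NP+ B cells and that of the ER members in plasma cells.

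Among cytosolic genes, Bag2 (2.63 ± 0.31), Bag1 (2.32 ± 0.28) and Ppil1 (1.85 ± 0.12) rose most from naive to NP+ B cells on the log2 scale. From NP+ B to plasma cells Bag2 (-2.91 ± 0.33), Bag1 (-2.80 ± 0.29) and Dnajc7 (-1.99 ± 0.10) fell most and Hspb1 (3.13 ± 0.38), Bag3 (1.10 ± 0.37) and Pfdn5 (1.03 ± 0.13) rose most. From naive to plasma cells the leading rises were those of Hspb1 (2.82 ± 0.37), Bag3 (1.83 ± 0.41) and Txn1 (1.81 ± 0.11), and the leading falls those of Dnajc7 (-1.41 ± 0.10), Hspb11 (-1.35 ± 0.23) and Fkbp3 (-1.22 ± 0.13). Hspb1 was under 1 TPM in every B cell library and at 4.08, 4.56 and 7.09 TPM in plasma cells. Bag3 was at 0.493, 0.288 and 0.286 TPM in naive, 1.83, 0.954 and 0.349 in NP+ B and 3.16, 1.79 and 2.87 in plasma cell libraries. Hspb1 and Bag3 passed the filter only with the plasma cell libraries, so their places in both rankings are not independent of the filter. Of 17 mitochondrial chaperones, 0 were called in NP+ B against naive cells by limma (median 0.15, with 7 above and 2 below 0 at an unadjusted p under 0.05), 2 were higher and 0 lower in plasma against naive cells (median -0.28), and 1 was higher and 2 lower in plasma against NP+ B cells (median -0.42). The mitochondrial shares higher and lower were 0% and 0%, 11.8% and 0%, and 5.88% and 11.8%. They are to be read beside the shares of all genes given above. By the lower threshold 5 mitochondrial chaperones were higher and 0 lower, 3 and 5, and 2 and 7 in the 3 comparisons. In the table with Ig genes 12 of the 17 were lower in each plasma cell comparison, at medians of -1.41 and -1.52, where most of all genes tested were lower too. Of the plasma cell medians, the former turned to 0.21 with median-of-ratios scaling and the latter to 0.04 with quantile normalization. Clpb (2.36 ± 0.30) and Dnajc19 (1.10 ± 0.13) rose from naive to plasma cells, and from NP+ B to plasma cells Clpb rose (1.47 ± 0.26) and Grpel2 (-1.03 ± 0.17) and Hspa9 (-1.02 ± 0.10) fell, falls that were not called with median-of-ratios scaling.

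Members were last set beside a relative of their own family. Hspa8, the cytosolic Hsp70, was at 908, 734 and 1038 TPM in the naive libraries, 1316, 1199 and 1330.1 in the NP+ B cell libraries and 490.1, 443 and 511 in the plasma cell libraries, above Hspa5 in every B cell library and below it in every plasma cell library, and its log2 change in plasma against NP+ B cells was -1.41 ± 0.12 where that of Hspa5 was 3.00 ± 0.10. For Hspa9, the mitochondrial Hsp70, the same change was -1.02 ± 0.10. Hsp90ab1, the cytosolic Hsp90, was at 744, 801 and 896 TPM in the naive libraries, 757, 808 and 686 in the NP+ B cell libraries and 416, 419 and 437 in the plasma cell libraries, and its change in plasma against naive cells was -0.94 ± 0.09 where that of Hsp90b1 was 5.33 ± 0.11. That of Hsp90aa1 was -0.15 ± 0.15, or 0.34 with median-of-ratios scaling, and that of the mitochondrial Trap1 was -0.63 ± 0.11.

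Ppia, the cytosolic cyclophilin, was at 4590.4, 4638 and 4256 TPM in the naive libraries, 7349.8, 6444 and 7047 in the NP+ B cell libraries and 3752, 3851 and 4068 in the plasma cell libraries. It exceeded Ppib by far in the B cell libraries, while the 2 genes were at like levels in plasma cells, and its log2 change there against naive cells was -0.21 ± 0.07 where that of Ppib was 3.59 ± 0.07. For the other pairs the change in plasma against naive cells was -0.21 ± 0.12 for Fkbp1a beside 3.93 ± 0.11 for Fkbp2, -0.28 ± 0.11 for Hspa4 beside 2.82 ± 0.19 for Hyou1 and -0.45 ± 0.17 for Dnaja1 beside 3.33 ± 0.10 for Dnajb11. It was -0.69 ± 0.29 for Cdnf beside 4.85 ± 0.08 for Manf, 0.45 ± 0.15 for Creld1 beside 5.99 ± 0.12 for Creld2, and 1.07 ± 0.13 for Sdf2, which rose, beside 4.84 ± 0.13 for Sdf2l1. Prdx1 and Prdx4, both peroxiredoxins, had like changes at the earlier step. Prdx1 of the cytosol rose by 1.69 ± 0.12 into NP+ B cells, close to the 1.56 ± 0.12 of Prdx4, but its log2 change from there to plasma cells was -0.20 ± 0.12 (0.18 with median-of-ratios scaling), where Prdx4 rose by 3.46 ± 0.09. Prdx3 of mitochondria was at 0.42 ± 0.10 at the earlier and -0.19 ± 0.09 at the later step (0.19 for the latter with median-of-ratios scaling). The signs of Hsp90aa1, Hspa4, Ppia, Fkbp1a and Dnaja1 in plasma against naive cells turned positive with median-of-ratios scaling (0.34, 0.21, 0.28, 0.29 and 0.04), and with Ig genes kept those of Sdf2 and Creld1 turned to -0.15 and -0.68. Clgn, the relative of Canx, was under the filter.

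**Figure D5:**
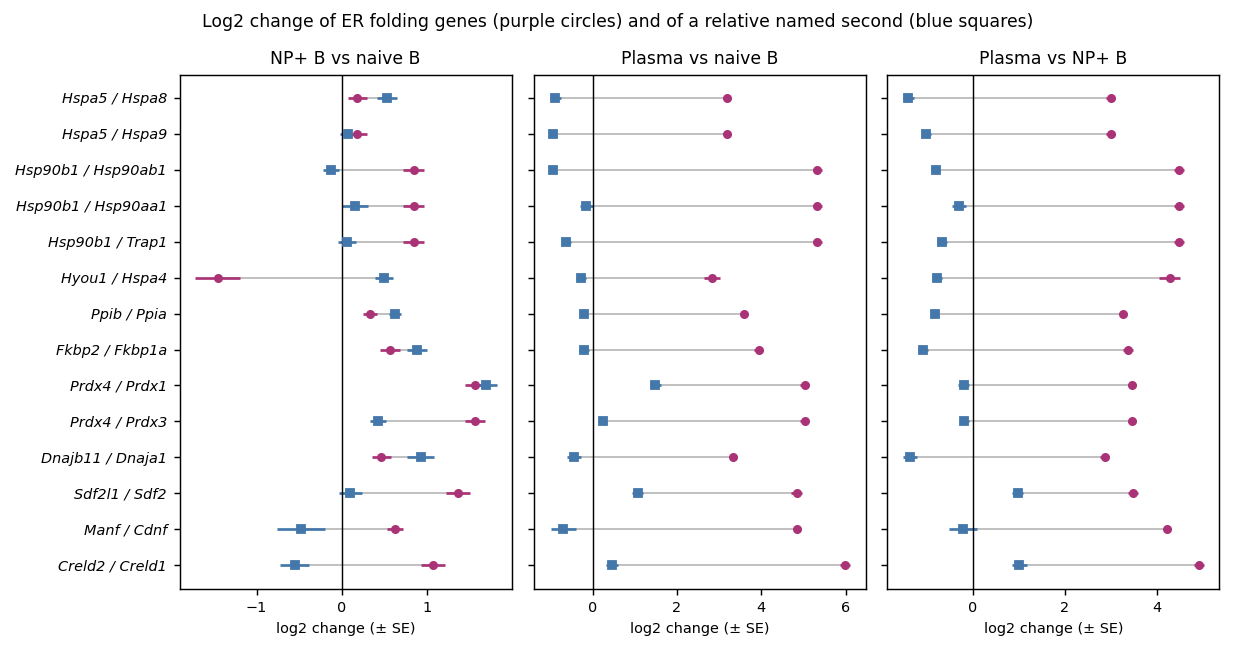
Log2 change ± SE (x axis) of ER folding genes (purple circles) and of a relative from the cytosol, mitochondria or ER (blue squares, named second), in 3 comparisons. In both plasma cell panels every circle lies to the right of its square, and in NP+ B against naive B cells the order varies from pair to pair.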

How the data were processed

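RNA of the 9 sorted populations was copied from poly(A) tails (SMART-seq v4) and made into libraries with Nextera XT, which do not mark strand. Per the labels, the authors pseudoaligned reads with kallisto and named the build mm10; the index annotation is not given in the sources used here. They deposited TPM per gene, with 322 Ig genes kept or left out, and log2 values that are voom-transformed estimated counts scaled to library size, which served here for depth and as an alternative. TPM of the table without Ig genes went to voom and limma 3.58.1 (R 4.3.3) with an offset of 0.5, the column sum of the whole table as library size, group means over all 9 libraries, no replicate block, and Benjamini-Hochberg adjustment over the 12892 genes that passed the filter. Log2 changes are on this offset scale, which understates changes of low genes, and errors beside them are SE. Nothing beyond the stated mice ties a library to a separate unit of replication. The moderated p-values measure the spread between the 3 libraries within each group, pooled over the groups and partly shared across genes. All 34 members were named by role, with per-library values for those called or among the 10 most abundant of a group; of other lists, the 3 called genes with the largest rise and fall per comparison, and relatives, were named. The members and lists were chosen with earlier results of these data known. Overlaps were sought with BLAST 2.17.0+ and Python 3.11.15, figures drawn with matplotlib 3.10.9, and promoter windows came from RefSeq. Alternatives changed scaling, filter, offset, values, Ig genes, block and libraries. Read intervals cover counting error only.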

Additional observations from a re-analysis of the deposited data

How the results depend on the processing

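The calls in the plasma cell comparisons were stable: leaving out each of the 9 libraries in turn gave 28 to 29 members higher against naive cells and 27 to 28 against NP+ B cells, with 0 lower in either, and 29 and 29 to 30 by the lower threshold. In NP+ B against naive cells the ranges were 4 to 5 higher and 2 to 3 lower, and 10 to 13 and 3 to 5 by the lower threshold; that last count was 3 without naive replicate 2, NP+ B cell replicates 1, 2 or 3, or plasma cell replicate 1. The members lower there numbered 1 with a mean TPM of at least 10, where 30 members were tested. By the lower threshold those lower numbered 3 with median-of-ratios scaling, quantile normalization, a mean TPM of at least 10 or an offset of 1, and those higher 7 with quantile normalization. With Ig genes kept, 2 members were lower in plasma against naive cells (3 by the lower threshold) and 1 against NP+ B cells (3 by the lower threshold), Tmx3 and Fkbp7 in the former and Tmx3 in the latter by fold change over 2, and the members' shares of TPM were 0.384%, 0.520% and 2.33% in naive, NP+ B and plasma cells. With Ig genes removed, the shares were 0.383%, 0.513% and 4.796% when Hsp90b1 was left out, and without single libraries 0.395 to 0.415%, 0.536 to 0.568% and 5.69 to 5.82%.

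Log2 changes turned sign in some members, among them Ero1lb, which had been called. In NP+ B against naive cells they were -0.0098 for Hspa5, -0.050 for Txndc5 and -0.074 for Txndc11 with quantile normalization, and -0.015 (to 0.13 over the other libraries) for Txndc11 without NP+ B cell replicate 1. With Ig genes kept they were -0.20 for Dnajc1, -0.87 for Tmx1 and -0.085 for Ero1lb in plasma against naive cells, and -0.36 for Dnajc1, -0.34 for Canx, -0.73 for Tmx1 and -0.95 for Fkbp7 against NP+ B cells. Median-of-ratios scaling and quantile normalization gave 0.079 and 0.13 for Tmx3, 0.27 and 0.35 for Fkbp7 and 0.39 and 0.41 for Fkbp14 in plasma against naive cells, and 0.36 and 0.43 for Tmx3 against NP+ B cells. The authors' log2 values gave 0.014 for Fkbp14 in plasma against naive cells and 0.038 for Tmx3 against NP+ B cells, and estimated counts, an alternative chosen after seeing the data, gave 0.0029 and 0.040. Leaving out 1 library in turn gave -0.53 to 0.037 for Fkbp7 and -0.56 to 0.18 for Fkbp14 in plasma against naive cells, and -0.16 to 0.090 for Tmx3 and -0.29 to 0.31 for Fkbp7 against NP+ B cells. The cause was not tested.

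Among single calls, Fkbp14 in NP+ B against naive cells was lost with median-of-ratios scaling (adjusted p = 0.0663; 0.0033 to 0.161 over all alternatives that tested it), and Creld2 there had a log2 change of 0.97 with quantile normalization. Calr in NP+ B against naive cells was called lower with quantile normalization. Dnajc1 in plasma against naive cells was called with median-of-ratios scaling (log2 change 1.49), with quantile normalization and without plasma cell replicate 3. Kept Ig genes ended the calls of Dnajc10, Canx, Ero1l, Ero1lb and Wfs1 against naive cells and of Dnajc10, Pdia3, Erp29, Erp44, Ero1l and Ero1lb against NP+ B cells.

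The series names 3 mice, but libraries with the same number did not deviate together (9 pairs, r from -0.075 to 0.068, 0 of them over 0.1). With the replicate block, 5 members were higher and 3 lower in NP+ B against naive cells, 28 and 0 in plasma against naive cells and 28 and 0 in plasma against NP+ B cells, where Fkbp14 was gained, and the log2 change of Fkbp7 there was -0.0037. The block changed no other call of a member. Of the other ER folding genes, 15 were then higher and 5 lower in plasma against naive cells, and 15 and 4 against NP+ B cells. With 3 libraries per group, the difference of Tmx1 between plasma and naive cells could not be told from the spread (adjusted p = 0.0791), and the Fkbp14 value of NP+ B cells rests on 3 estimated reads.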
